A study of Mus musculus with 2 samples.

Results

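The 10 genes described here encode the core of the mTORC1 pathway and its 4E-BP targets: Mtor, Rptor, Rheb, Tsc1, Tsc2, Akt1, Rps6kb1, Eif4ebp1, Eif4ebp2 and Deptor, of 21887 protein-coding genes in the RefSeq annotation of GRCm38.p6, the assembly of mm10. The list of genes was drawn up with earlier peak results of these libraries known, and their peaks are those of KAT8 that fall inside each gene or within 10 kb of either end. KAT8, also known as MOF, is the histone acetyltransferase at the core of the MSL and NSL complexes. It was mapped by CUT&Tag, where an antibody tethers a transposase that cuts and tags the surrounding DNA. The cells were primary macrophages grown from mouse bone marrow in 20 ng/ml M-CSF. One library came from cells left untreated and the other from cells given 100 ng/ml R848, a small molecule that activates TLR7, for 2 h. The labels call the cells wild type and give no strain, age or number of animals. With 1 library per group, no test between the groups was possible and every difference below is a description of these libraries.

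mTORC1 is a protein kinase complex that promotes translation, ribosome production and anabolic metabolism when growth factors and amino acids are plentiful. AKT inhibits the TSC1-TSC2 complex, which otherwise keeps the GTPase RHEB inactive, and active RHEB switches on the kinase mTOR, held in the complex by RAPTOR and restrained by DEPTOR. The best known targets are the S6 kinase encoded by Rps6kb1 and the 4E-BP proteins, which block the cap-binding factor eIF4E until mTORC1 phosphorylates them. In macrophages Toll-like receptors engage this pathway, and it shapes the translation of cytokine and interferon messages.

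The untreated list held 10 peaks in the windows of 6 of the 10 genes, and the R848 list 14 peaks in the windows of 9. Of all protein-coding genes, 64.0% had an untreated peak in such a window and 58.7% an R848 peak. Long genes catch more peaks: among genes within the members' length range (15.3 to 297 kb), the shares were 72.9% and 67.5%. Both lists had a peak at Mtor, Rptor, Rheb, Tsc1, Akt1 and Eif4ebp1, where 48.8% of all protein-coding genes had one in both. The R848 list alone had one at Eif4ebp2, Deptor and Tsc2 (9.98% of all protein-coding genes), no gene was in the untreated list alone (15.2%), and Rps6kb1 was in neither (26.1%). The genes were chosen with peak results of these libraries known, so nothing is read from these counts.

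Only 2 places held overlapping peaks of both lists, the Rheb promoter and the end of Siva1 inside the Akt1 window. These are 2 of 10 untreated and 2 of 14 R848 peaks, against 31.0% and 35.8% of all peaks. A peak was called shared where it overlapped a peak of the other list by at least 1 bp. At Mtor, Rptor, Tsc1 and Eif4ebp1 the peaks of the lists lay at different positions. Peak density in the windows was 1.01 untreated and 1.42 R848 peaks per 100 kb, where the windows of all protein-coding genes had 2.22 and 1.93. These densities were not matched for gene length, so nothing is read from them. Of the member peaks, 3 in the untreated and 7 in the R848 library reached a q of 0.05 or less (36.3% and 41.1% of all peaks).

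**Figure D1:**
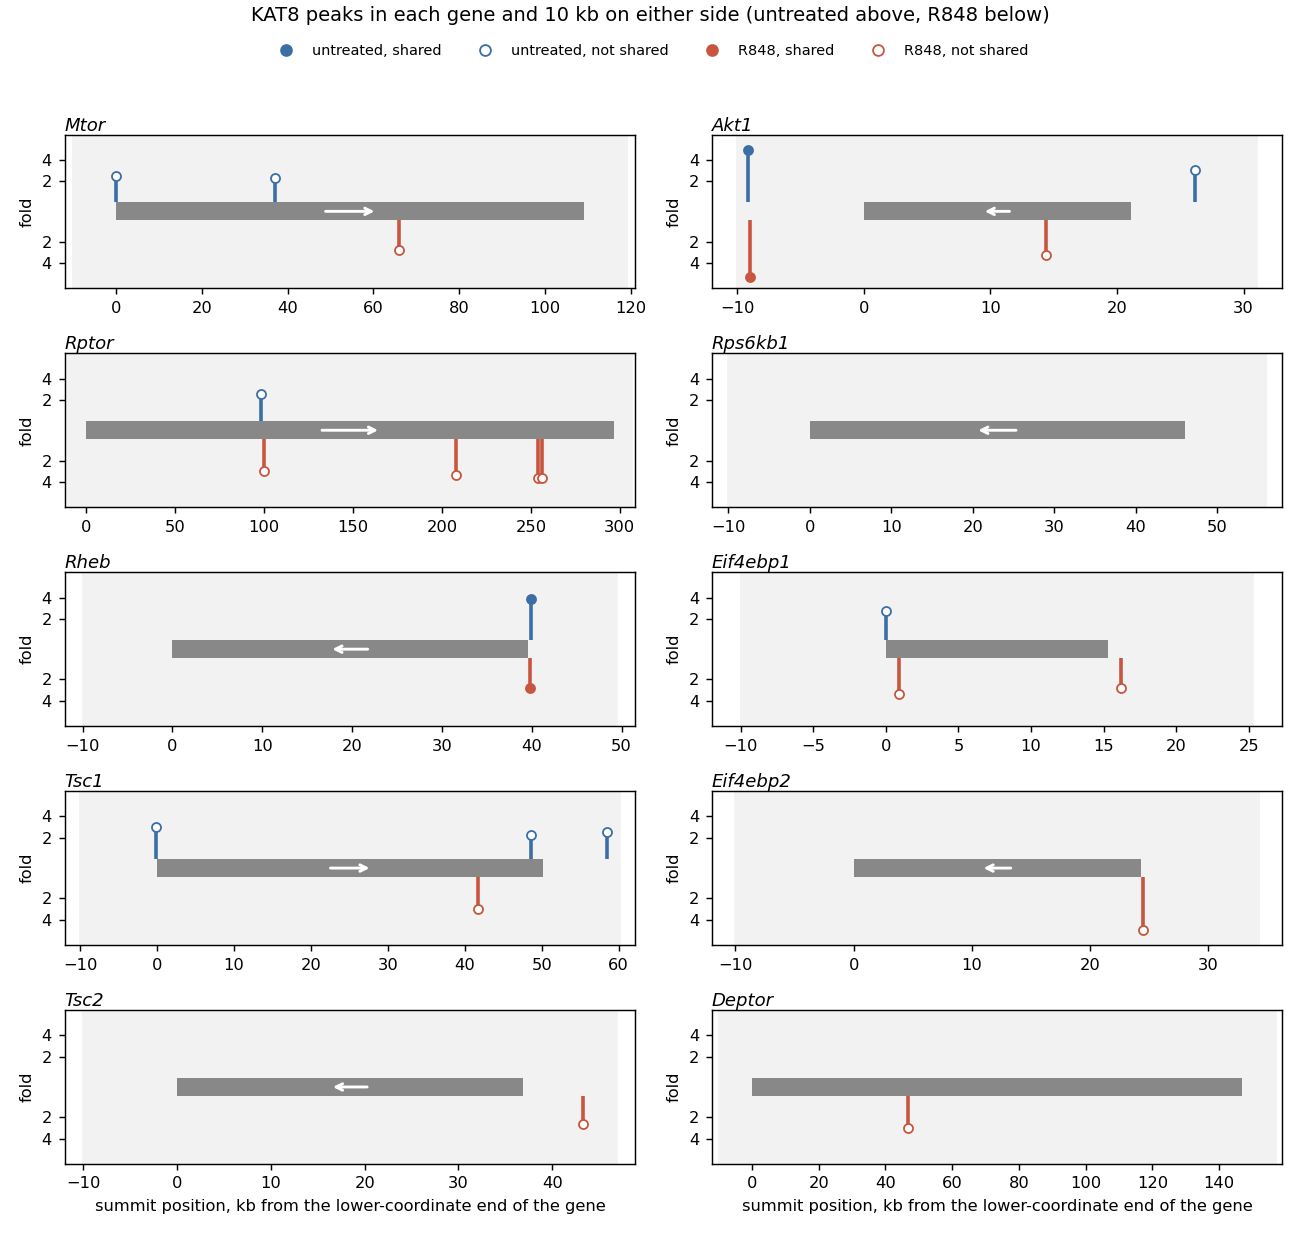
Each panel shows a gene as a grey bar, with the window of 10 kb on either side shaded and an arrow for the direction of transcription where a start is tabled; vertical lines mark peak summits, with the untreated library above and the R848 library below the bar, their height being the authors' fold over background and the x axis the distance in kb from the lower-coordinate end. Filled circles, at Rheb and at the left of the Akt1 window, are peaks that overlap between the lists; all other circles are open.

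Promoter sequences are shown for 3 of the 4 members with a peak within 1000 bp of a tabled start, Eif4ebp2 (a peak in the R848 list only), Rheb (both lists) and Mtor (untreated list only), and for Siva1, whose start carries the strongest shared peak of any member window. They are the bases before the start, outside the annotated gene, read 5′ to 3′ from RefSeq sequence of GRCm38.p6. Capitals mark matches to the searched motifs that are printed whole. Tsc1, the other member with such a peak, is not printed because nearly all bases of its tabled promoter lie inside the annotated gene.
Eif4ebp2: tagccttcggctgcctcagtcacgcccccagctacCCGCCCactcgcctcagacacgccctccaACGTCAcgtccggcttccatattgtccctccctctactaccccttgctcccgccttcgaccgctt
Rheb: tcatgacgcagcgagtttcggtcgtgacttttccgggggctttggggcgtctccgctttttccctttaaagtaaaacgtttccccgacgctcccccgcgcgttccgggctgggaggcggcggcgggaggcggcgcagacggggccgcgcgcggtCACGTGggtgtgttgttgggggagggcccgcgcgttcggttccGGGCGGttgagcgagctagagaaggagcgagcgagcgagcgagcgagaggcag
Mtor: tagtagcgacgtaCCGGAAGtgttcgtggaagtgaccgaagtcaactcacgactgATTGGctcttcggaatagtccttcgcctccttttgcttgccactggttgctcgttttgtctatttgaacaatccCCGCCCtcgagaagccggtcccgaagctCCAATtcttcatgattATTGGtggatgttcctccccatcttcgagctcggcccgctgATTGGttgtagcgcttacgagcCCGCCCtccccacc
Siva1: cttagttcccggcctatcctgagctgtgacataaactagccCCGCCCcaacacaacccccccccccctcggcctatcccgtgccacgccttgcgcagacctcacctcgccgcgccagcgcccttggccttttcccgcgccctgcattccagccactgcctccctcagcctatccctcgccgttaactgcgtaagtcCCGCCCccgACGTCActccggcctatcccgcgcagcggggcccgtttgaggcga
The Eif4ebp2 stretch is chr10:61452791-61452919 on the minus strand, 129 bases that lie wholly inside the R848 peak. The Rheb stretch is chr5:24842362-24842611 on the minus strand, of which all 250 bases lie in the untreated peak and 80 in the R848 peak. The Mtor stretch is chr4:148448332-148448581 on the plus strand, with 125 bases in the untreated peak, and the Siva1 stretch is chr12:112644578-112644827 on the plus strand, covered whole by both peaks. The 4 stretches had 64.3%, 68.0%, 54.4% and 67.6% G or C and held 11, 37, 19 and 24 CG dinucleotides. The median over 21263 tabled starts of protein-coding genes was 55.6% and 10 in 250 bases. The Eif4ebp2 values come from 129 bases only, so they are not directly comparable with that median.

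The 250 bases before each start were searched on both strands for 6 short motifs. GGGCGG, the Sp1 box present in 42.6% of the 21263 starts, matched in all 4 sequences. The CRE-like letters TGACGT, found at 7.37% of starts, matched at Eif4ebp2 and Siva1. An E-box of the form CACGTG occurs at 6.63% of starts and matched at Rheb. The ETS letters CCGGAAG, at 8.98% of starts, matched at Mtor and at Eif4ebp2. The Eif4ebp2 match straddles the edge of the annotated gene, so it is printed only in part and without capitals. The letters CCAAT, at 35.4% of starts, matched 4 times at Mtor and nowhere in the other 3 sequences. None of these matches overlapped another, and the AP-1 letters TGANTCA (6.13% of starts) did not occur in these windows. A match is a string of letters and does not show a bound factor.

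Eif4ebp2, the gene of the translational repressor 4E-BP2 (chr10:61428491-61452790, minus strand), had the most significant member peak found in 1 list only. The R848 peak spanned chr10:61452782-61453159, 378 bp across the outer edge of the gene, and its summit at 61453013 was 344 bp upstream of the tabled start. Its fold over background, the authors' ratio of summit pileup to local background, was 4.97, with a −log10 p of 9.35 and a −log10 q of 5.55. The number of overlapping fragments at the summit, solved from the authors' fold and p, was 17 over a background of 2.62. The untreated list had no peak within 10 kb of the gene, and its nearest peak was 43085 bp from the R848 peak.

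Background differed between the libraries, and the part of depth in peaks found in 1 list only was not tested. The lowest background recovered from the peak values was 3.37 fragments for untreated cells and 2.62 for R848, a ratio of 1.29. Read totals were not used, so this ratio stands in for depth and does not measure it. The lowest pileup called was 8 and 7. Scaled by that ratio, the 17 fragments at Eif4ebp2 correspond to 21.9 in the untreated library. The lowest R848 member pileup, 9, scales to 11.6. All R848 member peaks thus exceed the lowest untreated pileup once scaled. So does every solved peak of the R848 list, since its lowest pileup of 7 already scales to more than 8. Exceeding it therefore sets no member peak apart. Of 2426 R848 peaks at least as significant, 2349 (96.8%) overlapped an untreated peak. The Eif4ebp2 peak was among the other 77, of which 7 lay within 1000 bp of a tabled start of a protein-coding gene. The gene was chosen for this pattern, so these values are a description.

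**Figure D2:**
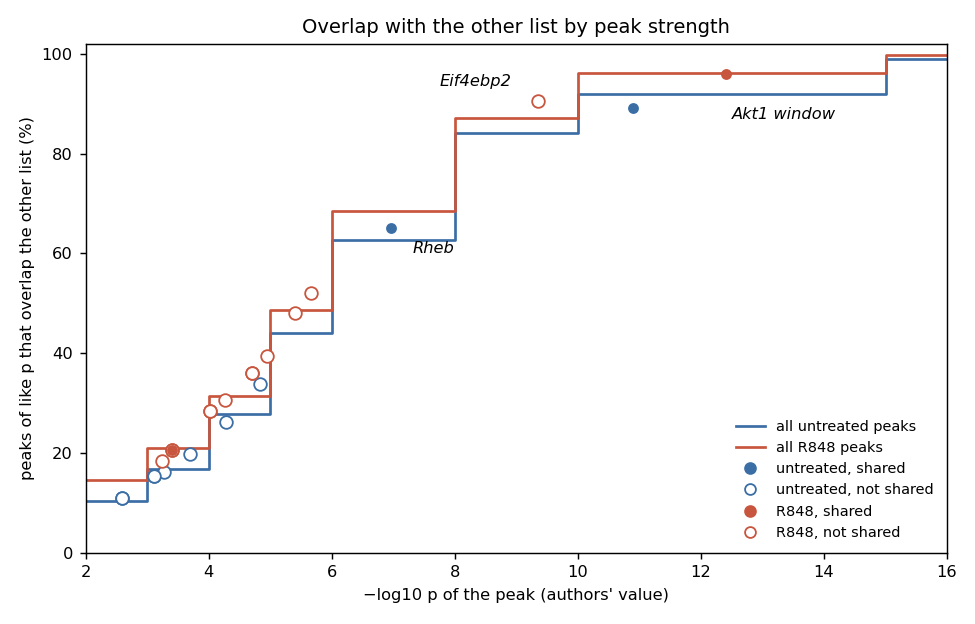
The lines give the share of all peaks in each list that overlap the other list (y axis, %) by bins of the authors' −log10 p (x axis), and the circles give each member peak at its own −log10 p and the share among peaks of its list within 0.5 of it. The open circle of Eif4ebp2 sits where 90.6% of like R848 peaks were shared, while most other open circles lie below 40%; peaks with equal values share a circle.

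Eif4ebp1, which encodes 4E-BP1 (chr8:27260327-27275656), had peaks of both lists near its lower-coordinate end, but they did not overlap. The untreated peak at chr8:27260215-27260549 was 335 bp wide with its summit at 27260352, 25 bp inside the gene, and had a fold of 2.75, a −log10 p of 3.69 and a −log10 q of 0.831. The R848 peak at chr8:27261095-27261320 was 226 bp wide with its summit at 27261206, 879 bp inside, and had a fold of 3.32, a −log10 p of 4.70 and a −log10 q of 1.51. A gap of 546 bp separated them. A second R848 peak lay 783 bp beyond the other end (chr8:27276439-27276885, 447 bp, summit 27276548, fold 2.76, −log10 p 3.40, −log10 q 0.581). Their pileups were 11, 11 and 9 fragments. Of the 3 peaks the first R848 one alone reached a q of 0.05. Among peaks of like p, 19.8% of untreated peaks and 36.1% of R848 peaks overlapped the other list, so at these strengths a peak in 1 list only was the usual case in both.

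Mtor, the kinase itself (chr4:148448582-148557685, plus strand), had a weak untreated peak on its start and none there in the R848 list. That peak spanned chr4:148448457-148448767 (311 bp), with its summit at 148448596, 14 bp into the gene, a fold of 2.52, a −log10 p of 3.12, a −log10 q of 0.462 and a pileup of 10. Scaled by the background ratio this pileup corresponds to 7.77 in the R848 library, and why no R848 peak was called there was not tested. Among untreated peaks of like p, 15.4% overlapped an R848 peak. Inside the gene lay another untreated peak (chr4:148485346-148485583, 238 bp, summit 148485531, fold 2.29, −log10 p 2.60, −log10 q 0.163). The R848 list had a single peak inside the gene, 28928 bp further on (chr4:148514511-148514781, 271 bp, summit 148514676, fold 2.76, −log10 p 3.40, −log10 q 0.581). None of the 3 reached a q of 0.05, and both inner summits were nearer an end of Angptl7, a gene nested in Mtor, than an end of Mtor.

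Rptor, the longest member (chr11:119602905-119899591, plus strand, 297 kb), encodes the RAPTOR scaffold that brings substrates to mTOR. All its peaks lay deep inside the gene, at least 40278 bp from either end by summit, and none was near the start. The untreated list had 1 peak (chr11:119701296-119701602, 307 bp, summit 119701430) of fold 2.52, −log10 p 3.27 and −log10 q 0.590, with a pileup of 11. An R848 peak lay 1087 bp from it without overlap (chr11:119702689-119702993, 305 bp, summit 119702807), with a fold of 2.97, a −log10 p of 4.27 and a −log10 q of 1.22. The other 3 R848 peaks each reached a q of 0.05. One was at chr11:119810557-119810756 (200 bp, summit 119810696, fold 3.32, −log10 p 4.70, −log10 q 1.51). A close pair followed about 254 and 256 kb into the gene, at chr11:119856642-119857027 (386 bp, summit 119856793, fold 3.59, −log10 p 5.41, −log10 q 2.07) and chr11:119859155-119859482 (328 bp, summit 119859313, fold 3.61, −log10 p 5.67, −log10 q 2.31). The nearest untreated peak to this pair was 68280 and 65825 bp away. Their pileups of 12 and 13 correspond to 15.4 and 16.7 when scaled to the untreated background, and 48.0% and 52.0% of R848 peaks of like p overlapped an untreated peak.

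Rheb, the GTPase that activates mTORC1 (chr5:24802823-24842361, minus strand), was the only member with a peak at its own tabled start in both lists. The untreated peak at chr5:24842220-24843060 was 841 bp wide, with its summit at 24842748, 387 bp upstream of the start. The fold was 3.89, the −log10 p 6.96, the −log10 q 3.47 and the pileup 16. The R848 peak at chr5:24842532-24842830 lay inside it, 299 bp wide with its summit at 24842637, 276 bp upstream, and had a fold of 2.76, a −log10 p of 3.40, a −log10 q of 0.581 and a pileup of 9. The untreated pileup corresponds to 12.4 when scaled to the R848 background, where 9 was found. The R848 peak did not reach a q of 0.05, so at that threshold Rheb was in the untreated list only. Folds of separate lists set side by side are not a measured change.

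Tsc1 and Tsc2 encode the complex that holds RHEB inactive. At Tsc1 (chr2:28640993-28691172, plus strand) an untreated peak covered the outer end of the gene, 427 bp upstream of the tabled start by its summit at 28640806 (chr2:28640734-28641117, 384 bp). Its fold was 2.98, its −log10 p 4.28, its −log10 q 1.26 and its pileup 12, and 26.2% of like untreated peaks overlapped an R848 peak. The R848 list had no peak there, and its single peak was inside the gene (chr2:28682130-28682841, 712 bp, summit 28682775, fold 3.04, −log10 p 4.03, −log10 q 1.01), 6671 bp from an untreated peak of fold 2.29 (chr2:28689512-28689771, 260 bp, summit 28689624, −log10 p 2.60, −log10 q 0.163). Another untreated peak lay 8238 bp past the gene, inside Spaca9 and Ak8 (chr2:28699410-28699609, 200 bp, summit 28699486, fold 2.52, −log10 p 3.12, −log10 q 0.462). None of these 4 peaks reached a q of 0.05.

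Tsc2 (chr17:24595816-24632676, minus strand) had no peak of its own in either list. The R848 peak in its window (chr17:24638792-24639213, 422 bp, summit 24639072) lay 6116 bp away, at the end of the DNA repair gene Nthl1 and 209 bp from an end of Slc9a3r2 by summit. It had a fold of 2.67, a −log10 p of 3.25, a −log10 q of 0.581 and a pileup of 9. The nearest untreated peak was 11472 bp from Tsc2, just outside the window. With 5 kb in place of 10 kb, Tsc2 had no peak in either list.

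Akt1, the kinase that inhibits the TSC complex (chr12:112653821-112674884, minus strand), held the most significant peaks of any member window, but they lay at another gene. The untreated peak at chr12:112644493-112645239 (747 bp, summit 112644654) had a fold of 4.91, a −log10 p of 10.9, a −log10 q of 7.1 and a pileup of 22. The R848 peak at chr12:112644473-112645263 (791 bp, summit 112644846) had a fold of 5.27, a −log10 p of 12.4, a −log10 q of 8.45 and a pileup of 24. Both covered the start of Siva1, which encodes an apoptosis regulator, and touched the lncRNA gene Gm30101, 8582 and 8558 bp from Akt1 and just inside the window. Among peaks of like p, 89.1% of untreated and 96.0% of R848 peaks were shared.

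Inside Akt1 itself the R848 list had 1 peak (chr12:112668061-112668260, 200 bp, summit 112668198, fold 3.23, −log10 p 4.95, −log10 q 1.74, pileup 13) and the untreated list none. An untreated peak 4994 bp beyond the gene lay inside Zbtb42, a zinc finger gene (chr12:112679878-112680106, 229 bp, summit 112679993, fold 3.06, −log10 p 4.83, −log10 q 1.75, pileup 14). Both reached a q of 0.05 in their list. Neither was within 1000 bp of the 2 tabled Akt1 starts.

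Rps6kb1, the gene of the S6 kinase that mTORC1 phosphorylates (chr11:86498869-86544885, minus strand), was the only member with no peak in its window in either list. The nearest untreated peak was 14018 bp and the nearest R848 peak 14057 bp from the gene. Deptor, the gene of the mTOR inhibitor (chr15:55112317-55259273), had 1 R848 peak 46.8 kb inside its lower-coordinate end (chr15:55159071-55159563, 493 bp, summit 55159136). Its fold was 3.04, its −log10 p 4.03, its −log10 q 1.01 and its pileup 10. The nearest untreated peak was 28381 bp from the gene, and 28.4% of R848 peaks of like p overlapped an untreated peak.

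**Figure D3:**
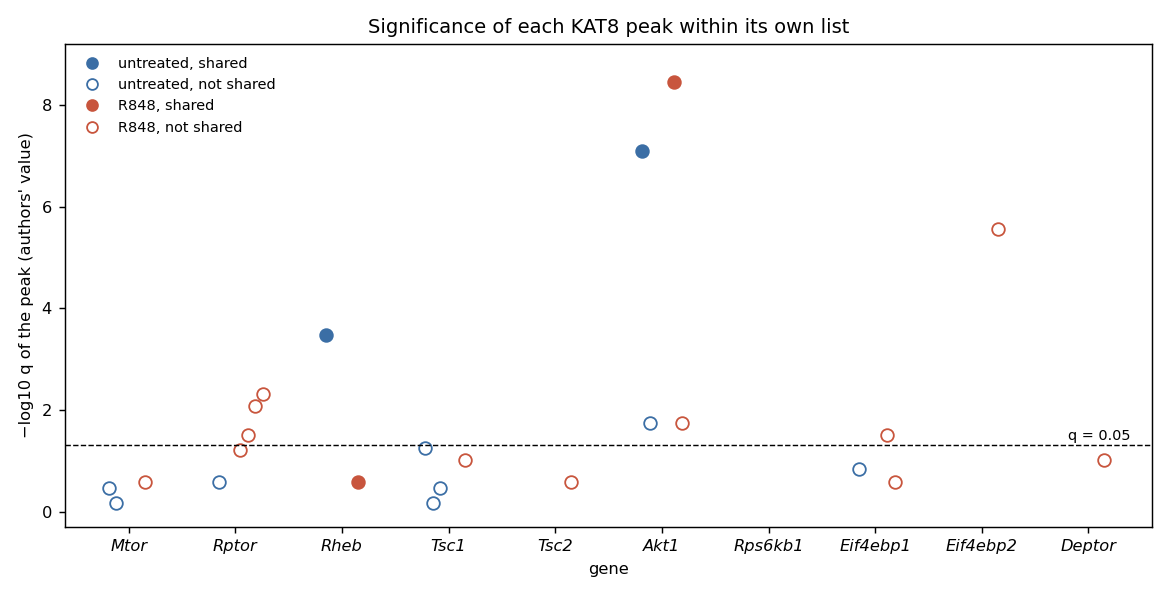
Each circle is 1 peak in a member's window, placed by gene (x axis) and by the authors' −log10 q (y axis), in blue for the untreated and red for the R848 library and filled where it overlaps the other list. Most peaks lie at or under the dashed line of q = 0.05, while the shared pair in the Akt1 window (7.1 and 8.45), the R848 peak of Eif4ebp2 (5.55) and the untreated peak of Rheb (3.47) stand highest.

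Taking only annotated starts, 8 of the 10 genes had one in the promoter table (Eif4ebp1 and Deptor did not). Within 1000 bp of a tabled start, 3 of the 8 had an untreated peak (Mtor, Rheb and Tsc1) and 2 an R848 peak (Rheb and Eif4ebp2). Of 17492 protein-coding genes with a tabled start, 28.7% and 24.1% had one, 17.9% in both lists. Of the 24 member peaks, 17 touched the member gene itself (7 untreated and 10 R848) and 7 lay outside it. Within 1000 bp of either gene end, 4 genes had an untreated peak (28.8% of all protein-coding genes) and 3 an R848 peak (24.4%). By summit, 4 untreated and 3 R848 peaks were nearer an end of another protein-coding gene than an end of the member.

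Other genes of the mTOR pathway were a list of 76 grouped by role. In the window, 59 of them had an untreated peak and 62 an R848 peak. Both lists had one at 53 (48.8% of all protein-coding genes). The untreated and R848 shares were 77.6% and 81.6%, against 64.0% and 58.7% of all protein-coding genes. Among protein-coding genes of 15.3 to 297 kb the shares were 72.9% and 67.5%, though some of the 76 are shorter. The list was drawn up with earlier peak results known, so nothing is read from the counts of this paragraph or from those by role below. Peaks of the lists overlapped in 44 of the 76 windows (35.3% of all protein-coding genes), where 2 of the 10 core genes had such a peak. These windows reach 10 kb past each gene and often catch a neighbour's peak. At the tabled starts themselves, 32 of 63 genes had an untreated peak and 31 an R848 peak. Of all protein-coding genes with a tabled start, 28.7% and 24.1% had one.

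Among subunits and partners of mTORC1, the R848 list had a peak at 5 of 5 genes and the untreated list at 4. Over all protein-coding genes, 58.7% had an R848 peak and 64.0% an untreated peak in such a window. Mlst8, a stable subunit of both mTOR complexes, had its strongest R848 peak at its own start (fold 6.08), and an untreated peak overlapped it there. The strongest untreated peak in the Mlst8 window (3.20) lay 3145 bp outside the gene. Akt1s1, which encodes the inhibitor PRAS40, had a shared peak at its start, with folds of 5.44 and 4.98 in the untreated and R848 lists. Tti2 had folds of 2.75 and 3.32 for peaks outside the gene, and its partner Tti1, a factor in the assembly of mTOR complexes, had an R848 peak only (2.76). The 4 genes of mTORC2, the complex that phosphorylates AKT, all had peaks in both lists and none overlapped. Over all protein-coding genes, 48.8% had peaks in both lists and 35.3% a shared peak. Prr5l (2.98 and 3.32), Rictor (2.29 and 3.32) and Prr5 (2.52 and 2.84) had strongest peaks of low fold that lay away from the tabled starts. Prr5l had another R848 peak at its own start.

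In the amino acid arm, which brings mTORC1 to the lysosome, 22 of 32 genes had an untreated peak and 23 an R848 peak, 18 in both. These are 68.8%, 71.9% and 56.2%, against 64.0%, 58.7% and 48.8% of all protein-coding genes. Among protein-coding genes of the members' length range, 72.9% had an untreated and 67.5% an R848 peak. Nprl2, a subunit of the GATOR1 inhibitor, had the highest folds (8.01 and 7.45), but at the peak of Rassf1, 8685 and 8625 bp away. Fnip2, a partner of folliculin, had a shared peak at its own start (6.18 and 4.70), while the strongest peaks in the Fnip1 window (5.95 and 4.42, shared) lay 4426 and 4354 bp outside the gene and touched Rapgef6. Fnip1 had another untreated peak at its own start. The stress-induced leucine sensor gene Sesn2 (3.87) and its relative Sesn3 (4.70) had an R848 peak at their own start and no untreated peak in the window. Flcn, the folliculin gene, had an untreated peak at its start only (2.98), and the glutamine transporter gene Slc1a5 one outside the gene (3.20).

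The growth factor and energy arm had an untreated peak at 14 of 18 genes and an R848 peak at 15, with 13 in both. These are 77.8%, 83.3% and 72.2%, against 64.0%, 58.7% and 48.8% of all protein-coding genes. Shared peaks lay at the starts of Pik3cb, a catalytic subunit of PI3-kinase (8.23 and 8.75), Gsk3b, a kinase inhibited by AKT (6.18 and 7.46), and Stk11, which encodes the AMPK-activating kinase LKB1 (5.60 and 5.25). Rps6ka1, an S6 kinase of the RSK family (strongest 4.14, outside the gene), and Tbc1d7, the third subunit of the TSC complex (2.49), had R848 peaks only. Another R848 peak of Rps6ka1 lay at its own start.

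Effectors and cap-binding factors had a peak at 15 of 17 genes in each list, 14 in both and all 14 with overlapping peaks. Over all protein-coding genes, 64.0% had an untreated and 58.7% an R848 peak, 48.8% had both, and 35.3% had overlapping peaks. Larp1, which encodes a repressor of ribosomal protein mRNA translation under mTORC1 control, had the highest −log10 q of the named pathway genes (47.7 and 37.0, folds of 9.75 and 8.52), at its own start. Eif4a1, the helicase of the cap-binding complex, also had a shared peak at its start (8.18 and 6.15). The strongest peaks in the window of Pdcd4, an inhibitor of this helicase (5.04 and 5.53, shared), lay 6348 and 6644 bp outside the gene at Shoc2 and Bbip1. Pdcd4 had another untreated peak at its own start. Eif4e, the cap-binding protein that 4E-BPs block, had a weak R848 peak only (2.49, −log10 q 0.233) at its start. Eef2k, the kinase of elongation factor eEF2, had an untreated peak only (3.08). The third 4E-BP gene, Eif4ebp3, had overlapping peaks in its window, but its strongest peaks (3.89 and 2.94) lay 6168 and 7281 bp outside the gene, at Apbb3.

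**Figure D4:**
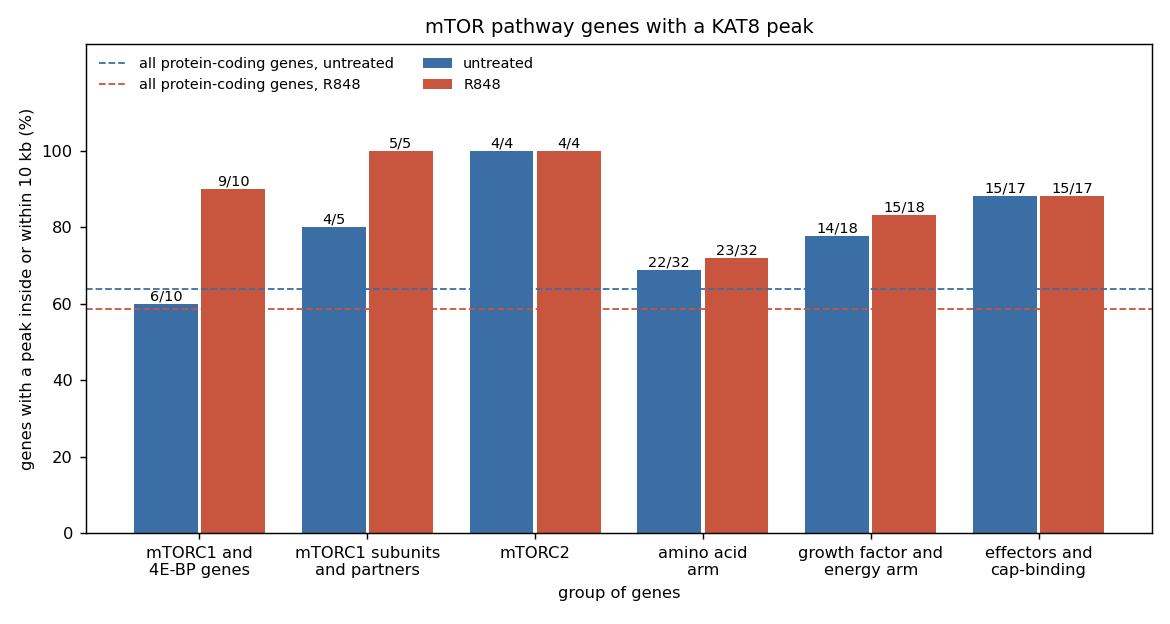
Bars give the share of genes in each role group (x axis) with a KAT8 peak inside or within 10 kb (y axis, %), in blue for the untreated and red for the R848 library, with the count above each bar, and dashed lines give the share of all protein-coding genes (64.0% and 58.7%). The 10 core genes stand at 6 and 9 of 10, and the effectors and cap-binding factors at 15 of 17 in each list. The lines are not matched for gene length (72.9% and 67.5% within the length range of the core genes). The genes were chosen with earlier peak results known, so nothing is read from the bars.

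Of markers that define the labelled cell type, all 8 macrophage genes had a peak in the window in both lists. Of 6 lymphoid genes 2 and 4 had one, and of 5 stromal genes 3 and 3. Over all protein-coding genes, 64.0% had an untreated and 58.7% an R848 peak, 48.8% in both lists. A peak at a marker does not measure its expression, and windows of this size hold a peak at most genes, so the cell type was not tested by these counts. No control or accessibility library was analysed here, so KAT8 binding and cutting of open chromatin cannot be told apart at any of these genes.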

How the data were processed

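KAT8 CUT&Tag peaks were deposited for 1 untreated and 1 R848 library, as 1 list per library (52001 and 44772 peaks). The mm10 build, MACS2 2.2.7.1, Bowtie 0.12.8 and DiffBind are named in the submitters' processing notes, without settings. Columns deposited by the authors are a summit offset, the −log10 q and −log10 p, a score, and the fold (ratio) of summit pileup to local background. The lowest deposited −log10 p was 2.01, so weak peaks are included.

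Peaks were assigned to a gene where any base fell inside it or within 10 kb, with genes and starts from RefSeq tables of GRCm38.p6; exons were not used here. Summit pileup and background were solved from the Poisson tail and the fold, with 1 added to pileup and background, for peaks of −log10 p up to 100; 99.6% of peaks in each list gave a whole pileup that returns the deposited −log10 p within 0.001. Peaks of like p are those of the same list within 0.5 in −log10 p. Python 3.11.15, pandas 2.3.3 and scipy 1.17.1 were used, and the overlap and pileup code was tested on simulated data.

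The members and lists were chosen with earlier results of these data known. All 10 members are named; other pathway genes are, per role, up to 3 with the highest fold in both lists and up to 2 per list in 1 list only. An item that this rule selects is not reported here. Neighbouring genes such as Siva1, and Eif4ebp3, were named after values were seen. The alternatives were a q of 0.05, a −log10 q of 5, lists of equal length, flanks of 0, 5 or 20 kb, a reciprocal overlap of 50%, summit distances up to 250 bp and gene-end windows of 500 or 3000 bp in place of 1000 bp. Untreated pileups scaled to the R848 background were added after seeing the data.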

Additional observations from a re-analysis of the deposited data

How the results depend on the processing

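Of 79 recomputed counts, 56 stayed within 1.5 times the main one. The peak threshold moved the most. With a q of 0.05 or less, 2 members had an untreated peak and 4 an R848 peak (1 in both, 1 in the untreated list only, Rheb, and 3 in the R848 list only, Rptor, Eif4ebp1 and Eif4ebp2), with 3 and 7 member peaks, of which 1 in each list was shared, and 1 member in place of 4 had an untreated gene-end peak. With a −log10 q of 5 or more, 1 and 2 members and 1 and 2 peaks were left, 1 shared in each list: the Akt1 window in both lists and Eif4ebp2 in the R848 list, so 1 member was in both and 1 in the R848 list only. The other pathway genes then numbered 15 and 11.

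With 20 kb on either side the untreated list had 16 member peaks in the windows of 8 members, and all 10 members had an R848 peak. Then 8 members were in both lists and 2 in the R848 list only. In the gene body alone 1 member was in the untreated list only, Rheb, whose R848 peak lies 171 bp outside the gene. Requiring 50% overlap left 1 shared peak in each list. Lists of equal length and untreated pileups scaled to the R848 background moved no count beyond 1.5 times. Eif4ebp2 kept its R848 peak at both thresholds. Its window had no untreated peak to begin with, and neither the thresholds nor the scaling could add one. No paired analysis was possible because each group has 1 library. The precision at single peaks is limited by pileups of 9 to 24 fragments, and read totals were not used here.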
